A study of Drosophila melanogaster with 6 samples.

Results

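The short-lived mRNAs of genes known by a CG number are the transcripts whose tagged signal fell furthest over a chase in Drosophila embryos and whose genes carried no other name in the authors' annotation. A CG number is the identifier a fly gene model receives when it is annotated, before any function has given it a name. They were chosen from the authors' normalized table as genes named by a CG number with a value on all 6 arrays and a signal of at least 1000 on both pulse arrays, averaged per gene in log2, that lay in the lowest 15% of the change from the pulse to the 3-hour chase in both series. The rule found 216 genes among 3566 that passed the first filters, of 8956 CG-numbered genes on the array and 8053 gene names of any kind with 6 values. These 216 genes are called members below. Of them, 202 were matched to a current gene of NCBI RefSeq (assembly Release 6 plus ISO1 MT), 175 by locus tag, 26 by synonym and 1 through the platform's gene table. Another 13 had no match and 1 matched several genes. A current name that is not a number was held by 95 members, 44%, against 45.4% of the 3566 genes.

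The RNA came from whole embryos of stage 12 to 15 that carried a UAS-T.g.UPRT transgene without a GAL4 driver. No cell type was singled out for tagging. The methods allow for either UAS-T.g.UPRT line, and which line went into which series is not given. Embryos were pulsed with 4-thiouridine for 1 hour at 30°C and then moved to uridine, and tagged RNA was purified at the end of the pulse and again 1 and 3 hours into the chase. In the UO series the chase held uridine only. In the U+actD series it also held actinomycin D, which blocks transcription. Each of the 6 groups was 1 single-channel array of pooled embryos, so no difference here has a replicate check. In whole embryos, fewer cells that express a gene and less RNA per cell cannot be told apart.

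In a pulse-chase measurement, RNA made during the pulse carries the thiol tag, and the loss of tagged RNA in the chase reports its decay. Short-lived mRNAs in animals are typically those of regulators whose amount must change quickly, and decay usually begins with shortening of the poly(A) tail. Actinomycin D keeps the tagged pool from being refilled by new transcription, at the cost of blocking the synthesis of any factor that decay needs.

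The arrays stood apart in 4 ways that touch the results. For U+actD, all 17331 spots of the table (100%) were the scanner signal multiplied by a constant for the array. The UO columns equalled the UO scanner signals, within 0.51 units after scaling, at only 0.11%, 0.17% and 0.56% of the probes with 1 spot, with a Spearman's rho of 0.88, 0.91 and 0.86 across 3582 to 3623 probes. Which source holds the arrays the labels name was not settled, and the scanner files are used below as a source that the choice of members did not touch. Across 7528 genes, the scanner array labelled UO pulse ranked genes most like the U+actD 3-hour chase column (rho = 0.92) and the UO 1-hour chase column (0.92), ahead of the UO pulse column (0.86) and the U+actD pulse column (0.79). By rank this array was thus less like its own column than like those 2 chase columns, and whether its label holds was not tested. It is the divisor of every scanner change from the pulse given below. In the U+actD columns the spike-in transcripts were 2.36-fold (1 hour) and 1.75-fold (3 hours) above their pulse values, so absolute shares of U+actD, and their order against the UO shares, depend on the authors' factors. Changes relative to the median gene do not. Of 14 markers of embryonic tissues, from neurons (elav, nSyb) to muscle (Mhc) and trachea (trh, btl), 12 were above background on all 6 arrays, and the blood cell genes srp on 5 and Hml on 2.

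As a description of the values that chose them, the members kept a median of 6.5% of their pulse signal at the 3-hour chase in U+actD and 8.20% in the UO columns (0.35% to 11.4%). The 209 members above background at 3 hours in U+actD ranged there from 1.19% to 9.32%. All 3566 CG-numbered genes kept medians of 16.7% and 18.8%. The limits lay at 9.38% and 11.4%, and 535 genes lay below each. The 216 that lay below both are 40.4% of either set and 6.06% of the 3566. Across the 3566 genes the 3-hour changes of both series had a rho of 0.57, and among the members, whose range the limits cut, 0.26. Half-lives were fitted by least squares to ln(signal) at 0, 1 and 3 hours and had a median of 44.2 min in U+actD (26.5 to 52.8 over those 209 members) and 50.3 min in the UO columns (21.8 to 67.4). Over all CG-numbered genes the medians were 68.6 and 73.7 min. The line had an adjusted R2 of at least 0.75 for 212 members in U+actD (98.1%, against 92.1% of all CG-numbered genes) and for 208 in the UO columns (96.3%, against 84.5%).

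**Figure D1:**
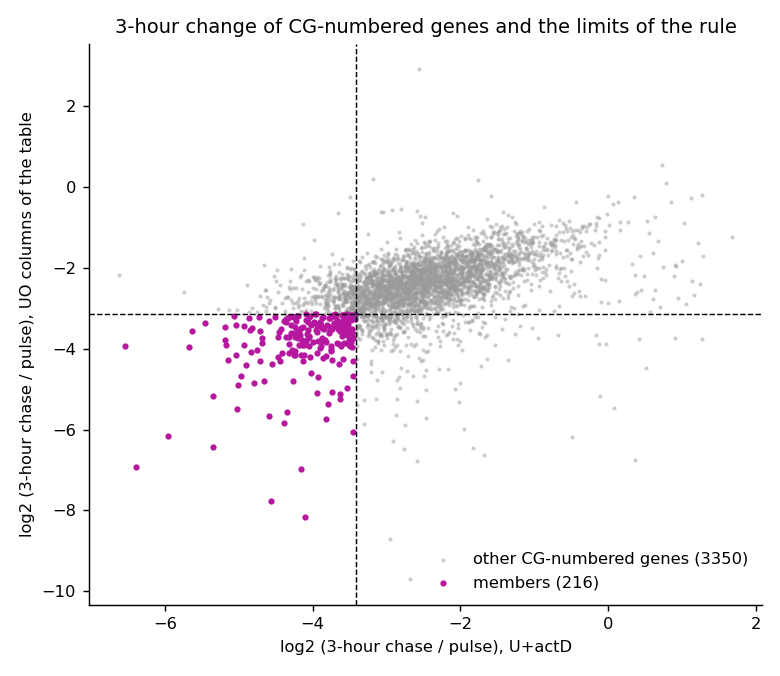
Each point is a CG-numbered gene, placed by its log2 ratio of 3-hour chase to pulse signal in U+actD (x axis) and in the UO columns of the table (y axis), with dashed lines at the limits of -3.41 and -3.13. The 216 members (magenta) fill the corner below both lines, and several trail to under -6 on one axis or the other.

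Genes on either side of the limits differed little. In U+actD the members nearest the limit were CG41520, with 9.32% left, and CG5262, with 9.29%, and the first genes beyond it were oys (CG18445), with 9.38%, and CG14907, with 9.39%. In the UO columns the ATP-binding cassette gene rdog (CG11897), with 11.4%, and the galactosyltransferase gene GalT1 (CG33145), with 11.4%, were inside, while CG5664 and the cation channel gene Trpm (CG34123) were outside, each also with 11.4%.

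The 12 members with the lowest mean change lost between 15.2-fold and 285-fold of their UO signal. Their 3-hour UO signals were as low as 16, and no background limit could be set for that column. The largest of the UO falls below are therefore uncertain. CG8908, the lowest of all, read 35629 at the U+actD pulse, 28683 at 1 hour and 424 at 3 hours, and 14984, 1911 and 123 in the UO columns. The fall between the pulse and the 3-hour chase was 84.0-fold and 122-fold. On the authors' scale 80.5% was left at 1 hour with actinomycin D and 12.8% without. CG6424 read 29167, 14913 and 1232 in U+actD and 12058, 3592 and 55 in the UO columns, a fall of 23.7-fold and 219-fold. The annotated gene CG32223, now part of CG42674, read 11627, 9011 and 675 and then 6848, 1427 and 24. Both of these genes fell further in the UO columns than in U+actD.

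CG13258 reached a similar share in both series. Its signals were 15619, 5681 and 251 in U+actD and 6027, 742 and 84 in the UO columns, with a half-life of 29.6 and 30.2 min. CG41233, which has no current match, read 27903, 27300 and 685 in U+actD and 9642, 2140 and 112 in the UO columns. On the authors' scale nearly all of its U+actD loss came after the first hour. In the UO columns it lost most of its signal in the first. The U+actD timing depends on the authors' factors, since the 1-hour spike-ins were 2.36-fold above their pulse values. Culd (CG17352) is a CUB and LDL-receptor class A domain protein known from the fly eye. It read 12023, 3900 and 677 in U+actD and 1999, 864 and 16 in the UO columns.

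CG8136 read 16410, 9316 and 401 and then 2550, 344 and 71. The gene frac (CG7526), which encodes a fibrillin-like extracellular protein, read 6590, 2509 and 203 and then 1837, 337 and 41. Half-lives were 32.4 and 36.6 min for CG8136 and 35.4 and 33.6 min for frac. CG13992 ended at 60 in U+actD, under the background limit of 191 on the table's scale for that array, so its fall there is only known to be at least 29.4-fold. In the UO columns it fell 15.2-fold, from 3219 to 212. Another 6 members were below that limit at 3 hours, CG31285 (lqfR), CG17994, CG7509, CG10041, CG32021 and CG32440, with signals from 132 to 184.

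Bcat (CG1673), the branched-chain amino acid aminotransferase, read 19852, 17120 and 820 in U+actD and 13261, 3250 and 263 in the UO columns. CG40271 read 11904, 13018 and 571 and then 5556, 1600 and 97. On the authors' scale its signal at 1 hour was above the pulse with actinomycin D, and it was at 28.8% of it without. CG7695, the last of the 12, read 18368, 9989 and 570 and then 7264, 1205 and 242. In all 12 genes both 3-hour values lay under both earlier values of the same series. On the authors' scale the 1-hour values ranged from 32.4% to 109% of the pulse in U+actD and from 12.3% to 43.2% in the UO columns.

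**Figure D2:**
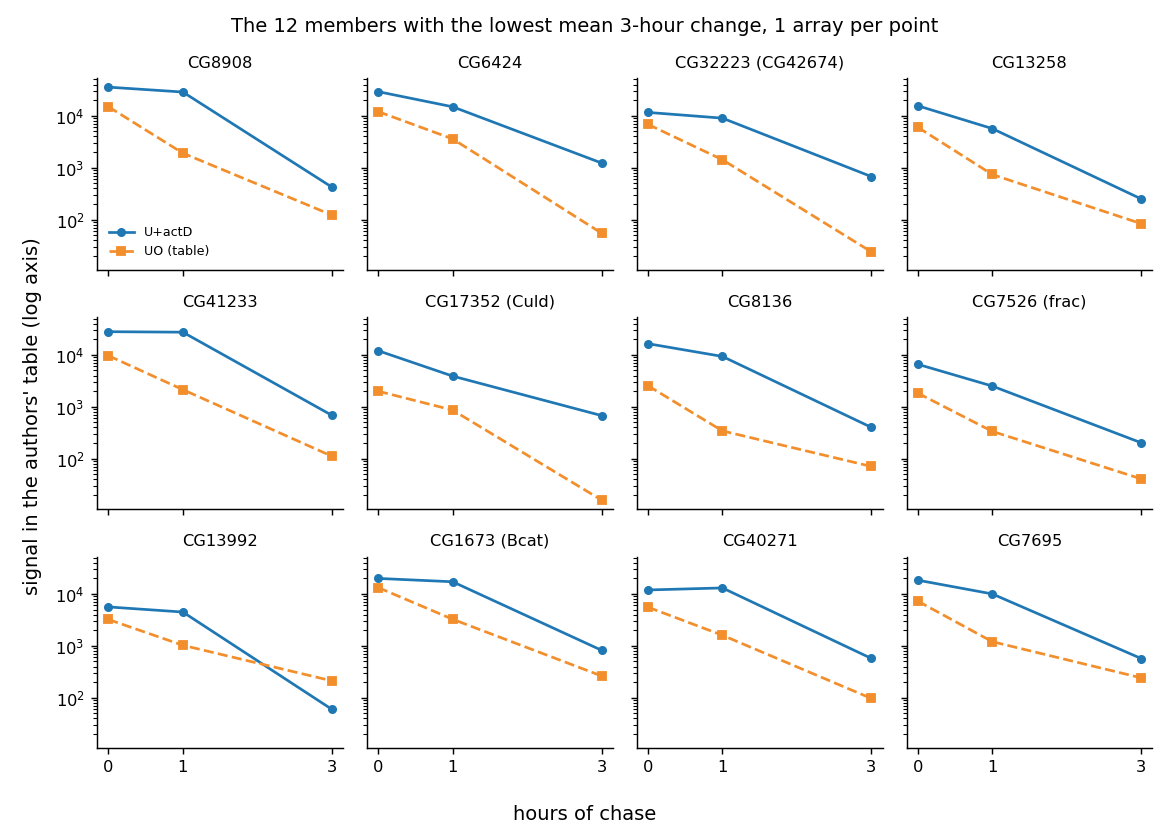
Signals of the 12 members with the lowest mean 3-hour change are drawn on a log axis against hours of chase, with U+actD as solid blue lines and the UO columns of the table as dashed orange lines, 1 array per point. CG8908, CG41233 and CG40271 stay near their pulse level for the first hour in U+actD on the authors' scale and fall in the UO columns.

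Repeated spots gave a technical error. Their values came from 375 spots of 230 distinct probes. Of these probes, 127 had 2 spots, and in U+actD the spots differed by a median of 0.24 log2 at the pulse and 0.30 at the 3-hour chase, so the 3-hour change of 1 probe differed between its spots by a median of 0.31 and by over 1.04 for 1 in 10 probes. In the UO columns both spots of each of the 127 probes held the same value, so that source shows no spread within an array. The spread between embryo pools was not measured in either.

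Most members, 205, rested on 1 probe. For the 11 with several, the probes' mean 3-hour changes spread over a median of 0.91 log2. All probes lay inside both limits for 3 of the 11 genes and only some for 8. The probes of uex (CG40084), a magnesium transporter gene of the CNNM type, differed most, with mean changes from -5.38 to -2.82 over 3 probes. Those of the palmitoyltransferase gene Zdhhc8 (CG34449) lay at -4.29 and -3.01 and those of CG4467 at -4.61 and -3.51. The smallest spreads were those of CG14073, from -3.58 to -3.20, and of CG34417, whose 3 probes lay from -4.14 to -3.55, all inside. For the 8 genes with probes on both sides of a limit, the gene's place rests on the mean of its probes.

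A pair of entries, CG13035 and CG13036, are now 1 gene, CG44836. The first kept 3.69% of its pulse signal in U+actD and 6.16% in the UO columns, and the second 7.05% and 5.49%. Both were members by the rule, so that all 4 shares lay inside the limits is no repeat of the result.

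Known functions could be named for 67 of the members, grouped here into 6 roles after the members were known, with no claim that a role is more frequent among them than elsewhere. The other 149 were not described. The largest group by function, metabolism, transport and protein turnover, had 19 genes. Among them Lon (CG8798), the mitochondrial protease that removes damaged matrix proteins, read 47979, 29924 and 2173 in U+actD and 27781, 8754 and 2125 in the UO columns. PCB (CG1516), pyruvate carboxylase, which feeds the citric acid cycle, read 16865, 13121 and 1545 and then 10497, 3024 and 789. Enzymes of glycosylation were also present. They were mmy (CG9535), which makes UDP-N-acetylglucosamine, with a half-life of 50.5 and 46.6 min, the glucosidase II subunit gene GCS2alpha (CG14476), with 44.8 and 47.0 min, and Dhdds (CG10778), which makes the dolichol backbone, with 42.9 and 55.2 min. The lysyl hydroxylase gene Plod (CG6199), which modifies collagen, was among the brightest members, at 60597 and 36932 on the pulse arrays, and its U+actD pulse spot was saturated. Over the 19 genes the share left at 3 hours ran from 3.44% to 9.16% in U+actD (median 6.66%) and from 1.98% to 11.4% in the UO columns (median 9.04%).

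Genes of endosome and Golgi traffic made up 12 members. Vps11 (CG32350), a subunit of the tethering complexes HOPS and CORVET at endosomes and lysosomes, read 35678, 15777 and 1939 in U+actD and 12821, 3505 and 968 in the UO columns. Vps53 (CG3338), of the GARP complex that receives vesicles at the Golgi, read 11881, 7200 and 961 and then 3657, 1994 and 310. Both rabconnectin genes, whose products work together on the vacuolar proton pump, were members. Rbcn-3A (CG3585) read 6966, 3017 and 408 and then 3216, 1244 and 230, and Rbcn-3B (CG17766) read 48838, 22733 and 2552 and then 13668, 4905 and 1115. Their half-lives in U+actD, 43.6 and 41.6 min, were close although the pulse signals were far apart. Other members of this group were the golgin gene GCC185, the sorting nexin gene Snx27, the Rab GTPase-activating protein gene sky, Evi5, mop, lqfR, brun and tweek. The group's median half-lives were 43.9 and 50.4 min.

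Chromatin and transcription was the role of 11 members. Utx (CG5640), the demethylase of histone H3 lysine 27, fell most among them in U+actD, from 44137 to 25926 and 1553, and read 17879, 7673 and 1055 in the UO columns. The H3 lysine 79 methyltransferase gene gpp (CG33324) read 16366, 5628 and 795 and then 2745, 1065 and 287. A cofactor of H3 lysine 9 methylation, wde (CG12340), read 37027, 20861 and 2734 and then 4264, 1950 and 370. These genes for histone modification had U+actD half-lives of 35.9, 41.4 and 46.7 min. Further members were the Polycomb-associated gene RYBP, the corepressor gene Lint-1, mute of the histone locus body, the Integrator subunit gene IntS1, the telomere capping gene tea and srl, the fly PGC-1 homolog. The RNA polymerase III machinery gave 2 members, its largest subunit Polr3A (CG17209) and the initiation factor subunit Bdp1 (CG9305), which kept 7.54% and 8.96% in U+actD and 11.2% and 7.0% in the UO columns.

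RNA processing and translation was the role of 6 members. The NOVA homolog ps (CG16777), which regulates splicing, fell from 15066 to 9806 and 691 in U+actD and from 9843 to 1477 and 503 in the UO columns. Caper (CG11266), another splicing factor, read 27645, 11625 and 2078 and then 11612, 8979 and 1281. So ps had lost most of its UO signal at 1 hour, with 15.0% left, and Caper little of it, with 77.3% left. The exonuclease gene Nbr (CG9247), whose product trims microRNAs, had half-lives of 50 and 49.3 min. ZC3H3, Nxf3, which exports piRNA precursors in the germ line, and the translation scaffold gene mxt completed the group.

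Junctions, the cytoskeleton and receptors accounted for 11 members. The smooth septate junction gene mesh (CG31004) read 28400, 19339 and 2302 in U+actD and 11758, 2397 and 339 in the UO columns, where 2.88% was left. The ZO-1 homolog pyd (CG9731), a scaffold of adherens junctions, read 26935, 13114 and 1798 and then 11204, 2320 and 707. The endocytic receptor genes mgl (CG34339) and Cubn (CG32702), homologs of the endocytic receptors megalin and cubilin, kept 5.28% and 5.09% in U+actD and 7.64% and 8.18% in the UO columns. The tubulin-modifying enzyme genes Atat, TTLL4A and TTLL6B, the Shroom homolog Shrm, Svil, jvl and Liprin-gamma were the others. Among kinases and signalling, with 8 members, were the AMPK-related kinase gene Nuak (CG11870), which read 40209, 16989 and 2087 and then 9516, 3320 and 1030, and the salt-inducible kinase gene Sik3 (CG18604), which read 17914, 8426 and 1083 and then 9407, 3360 and 732. The lipid kinase genes Cerk (CG16708) and rdgA (CG15352) had U+actD half-lives of 35.9 and 42.4 min. Drak, hppy, the semaphorin gene Sema2b and the glutamate receptor gene Ekar were the remaining ones. Median half-lives over the 6 roles lay between 42.4 and 46.9 min in U+actD and between 48.9 and 53.3 min in the UO columns, which is less than the range of members within any of them.

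The 1-hour arrays were not used to choose the members, although the pulse arrays they are compared with were. Changes are given relative to the median gene, each array having been centred on the median of all 8053 genes. In U+actD the members' median 1-hour change was -0.25 log2, and 155 of 216 (71.8%, 95% Wilson interval 65.4% to 77.3%) lay below the median gene, against 45.9% of all genes. In the UO columns the median was -1.0, 212 of 216 (98.1%, 95.3% to 99.3%) lay below it, against 48.1% of all genes, and 109 lay at least 2-fold below it, against 6.94%. Such a 2-fold gap was seen for 2 members in U+actD, where the share over all genes was 0.261%. In the other direction, 3 members lay at least 2-fold above the median gene in U+actD, against 7.50% of all genes, and 0 in the UO columns, against 4.88%. Over all CG-numbered genes these shares were 4.60% and 4.01%. As a share of the pulse the members' median was 51.4% in U+actD and 32.5% in the UO columns, and 61.9% and 66.4% over all CG-numbered genes. Scaled on the spike-ins instead, the U+actD median was 21.8%, below that of the UO columns. That scale rests on 4 spike-ins, and the UO columns were not rescaled. Intervals cover the counting of genes only.

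**Figure D3:**
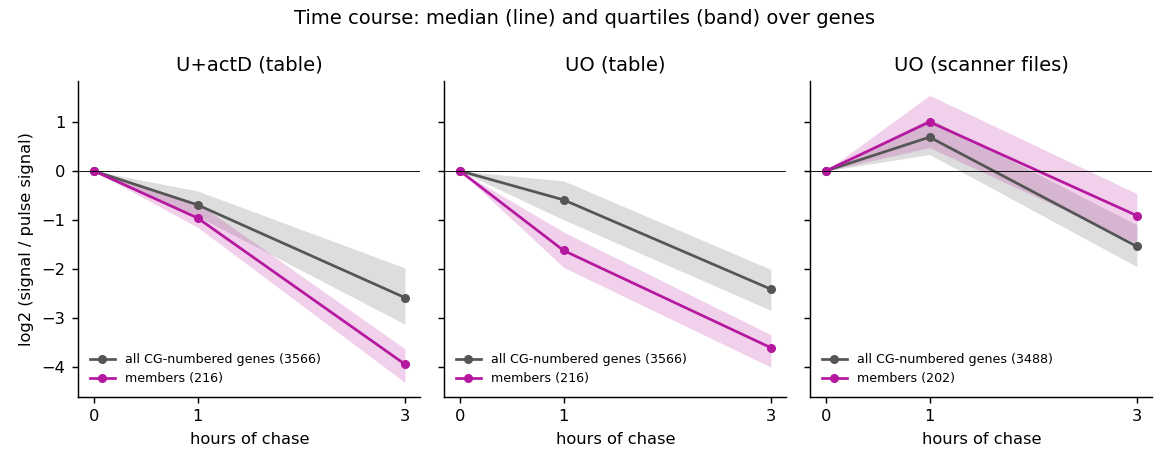
Lines join the median log2 ratio to the pulse signal over hours of chase, with bands between the quartiles, for members (magenta) and all CG-numbered genes (grey), in U+actD, in the UO columns of the table and in the UO scanner files. At 1 hour the members' median lies close to the other genes in U+actD and well below them in the UO columns, and in the scanner files it lies above them at 1 and 3 hours.

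Relative to the median gene, most members were lower at 1 hour without actinomycin D than with it. The 1-hour relative change was lower in the UO columns than in U+actD for 193 of 216 members, against 54.2% of all genes. It was below the median gene in both series for 152 members, against 28.9% of all genes, while 60 members were above it with actinomycin D and below it without, against 19.2%. Over all CG-numbered genes the 1-hour changes of the series had a rho of 0.36, and over the members -0.16. As plain shares of the pulse, 185 members were lower in the UO columns than in U+actD with the authors' factors and 53 with U+actD scaled on the spike-ins. At least 2-fold to opposite sides of the median gene lay 2 members, uex and CG41616, against 0.323% of all genes. These 1-hour changes share the pulse columns with the choice of members.

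A fit over all 6 arrays with series as a block left 2 residual degrees of freedom. With limma's moderated test and Benjamini-Hochberg adjustment over 8053 genes, no member was lower at 1 hour at an adjusted p under 0.05, and 0% of all genes was. The fitted coefficient was below 0 for 209 of 216 members, against 47.5% of all genes, with a median of -0.59 log2. It is set against the same pulse columns that chose the members, so these counts are a description. At an unadjusted p under 0.05, 22 members were lower and 0 higher, against 0.981% and 5.54% of all genes. Without the UO pulse column the coefficient was below 0 for 185 members, and without the UO 1-hour chase array for 149. With UO scanner values in place of the UO columns it was below 0 for 99 of 202 members.

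The decay slope was compared between series with a term of series by chase hours, which leaves 1 residual degree of freedom. The slopes rest mainly on the pulse and 3-hour values that chose the members, so the calls are given as a description. By limma, 2 members fell faster in the UO columns at an adjusted p under 0.05, against 1.15% of all genes, and 0 fell faster in U+actD, against 0.161%. They were CG32223, with a slope difference of -1.38 log2 per hour (SE 0.22, adjusted p = 0.0150 by limma), and CG6424, with -1.16 (SE 0.21, adjusted p = 0.0280 by limma). They are also among the 3 lowest members by the mean 3-hour change, their 3-hour UO signals were 24 and 55, and no background limit could be set for that column. When genes with any value under 200 were left out, neither was tested and no member passed. The share of members called is near that of all genes. At an unadjusted p under 0.05, 10 members fell faster in the UO columns, against 6.59% of all genes, and 7 in U+actD, against 4.31%. The slope was less steep in the UO columns for 148 members, against 47.3% of all genes.

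Among the members, 15 carried a CG number of 40000 or above, 6.94%, as against 44 of the 3566 genes, 1.23%. Except for uex and CG41520 these were the 13 entries with no current gene, so their products cannot be named here. Their pulse signals in U+actD ranged from 2976 to 64529. At 1 hour the 15 were above the median gene in 14 cases with actinomycin D and in 0 without, with medians of 0.67 and -1.33 log2. CG41579 read 54409, 55342 and 1954 in U+actD and 8647, 2376 and 301 in the UO columns. CG41616 read 10795, 13611 and 618 and then 3464, 944 and 177. Both were above their pulse signal at 1 hour with actinomycin D, on the authors' scale, and near 27% of it without. For the 29 genes with such numbers that were not members the medians were -0.01 and -0.11. Whether the probes of these entries share sequence was not analysed here. Without the 15, 76.6% of members were below the median gene in U+actD and 98.0% in the UO columns.

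**Figure D4:**
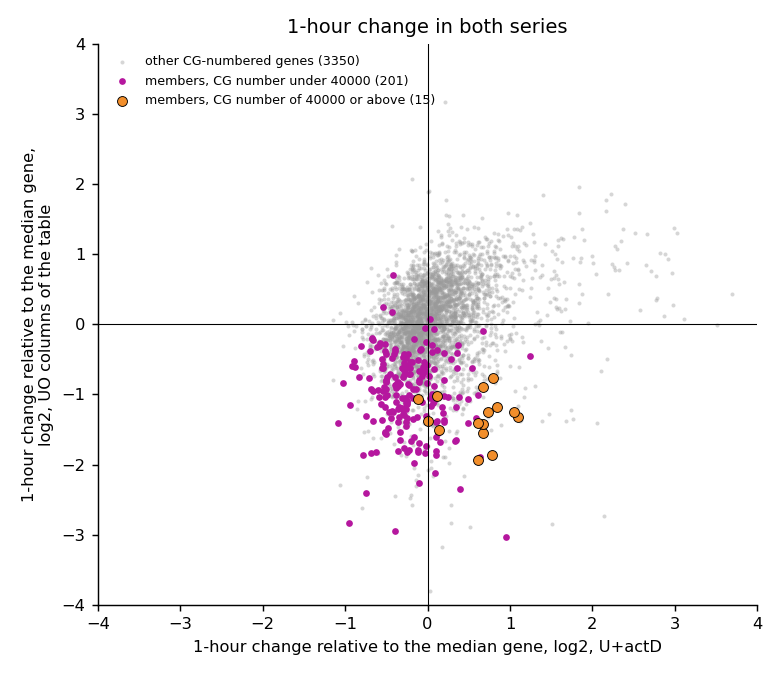
Each point is a CG-numbered gene, placed by its 1-hour change relative to the median gene in U+actD (x axis) and in the UO columns (y axis), both in log2, with 1 gene outside the axes. Members with a CG number of 40000 or above (orange) lie mostly to the right of 0 and all below it, and the other members (magenta) lie mostly below 0 on both axes.

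Signals at 1 hour were higher than at the pulse for 8 members in U+actD, 3.70%, against 12.6% of all genes. Over the 3566 CG-numbered genes the share was 8.92%. With U+actD scaled on the spike-ins the count of members was 0. The 8 were CG40271, CG41579, uex, CG41569, CG41616, CG40971, CG32440 and aqz. In the UO columns it was 1 member, CG6345, against 16.4% of all genes. The members with most left at 1 hour over both series were aqz (CG9821), at 55862, 80686 and 4916 in U+actD and 46345, 22010 and 3776 in the UO columns, CG7530, at 9899, 9628 and 864 and then 3535, 2145 and 309, and uex, at 58200, 76412 and 3832 and then 35186, 9135 and 1348. For aqz and uex a pulse spot was saturated in U+actD, so the pulse is a lower bound there and the share left at 1 hour may be lower than printed. The members with least left were CG30377, at 31.5% and 9.09%, CG13258, at 36.4% and 12.3%, and CG6362, at 28.9% and 24.5%. In CG30377 the UO signal did not fall further after 1 hour, from 205 to 228, and its line had an adjusted R2 of 0.07.

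Before the chase the members were brighter than the other genes of their kind in the table. Their median pulse signal was 17032 in U+actD, 0.60 log2 above that of all CG-numbered genes, and 5436 in the UO columns, 0.24 above. Since the pulse is the divisor of the change that chose them, this is a description. On the UO scanner array labelled pulse, for the 202 members above background there, the median lay 0.91 log2 below that of all CG-numbered genes.

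The UO scanner files gave a readout that the choice did not use. Here 202 members could be measured, the other 14 being under the background limit at the pulse, and 18 of the 202 were below background at 3 hours and held at that limit. Their median 3-hour change was +0.57 log2 above the median gene. Only 51 of 202 (25.2%, 95% Wilson interval 19.8% to 31.7%) lay below the median gene, against 48.9% of all 7528 genes measured. At least 2-fold above it were 53 members, against 11.6% of all genes, and at least 2-fold below it 4, against 5.06%. Over the CG-numbered genes measured these shares were 8.14% and 5.82%. At 1 hour 78 of 202 (38.6%) lay below the median gene, against 55.3%, while 35 lay at least 2-fold above it, against 5.78%, and 14 at least 2-fold below it, against 6.43%. The long-lived CG-numbered genes, 284 in the highest 15% of both series of the table, moved the other way, with a median of -0.50 at 3 hours over 283 genes. By the labels of these files the members lay above the median gene, and the 3-hour changes of 3488 CG-numbered genes had a rho of -0.30 with the UO columns and -0.36 with U+actD. The array labelled pulse is the divisor of every scanner change. Turning the sign of the 3-hour changes puts 74.8% of the members below the median gene. That follows from the 25.2% above and holds no new information. From the 1-hour to the 3-hour scanner array, a change that does not use the array labelled pulse, 79 of 210 members (37.6%, 31.3% to 44.3%) lay below the median gene, against 50% of all 7737 genes, with a median of 0.17 log2. Across 3521 CG-numbered genes that change had a rho of 0.14 with the same change in the UO columns and -0.16 with that in U+actD. So members stayed on the higher side without that array, by less. The scanner 3-hour array, which enters this change, did not rank genes most like its own column either. Its rho was 0.90 with the UO 1-hour chase column and 0.88 with the UO 3-hour chase column.

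**Figure D5:**
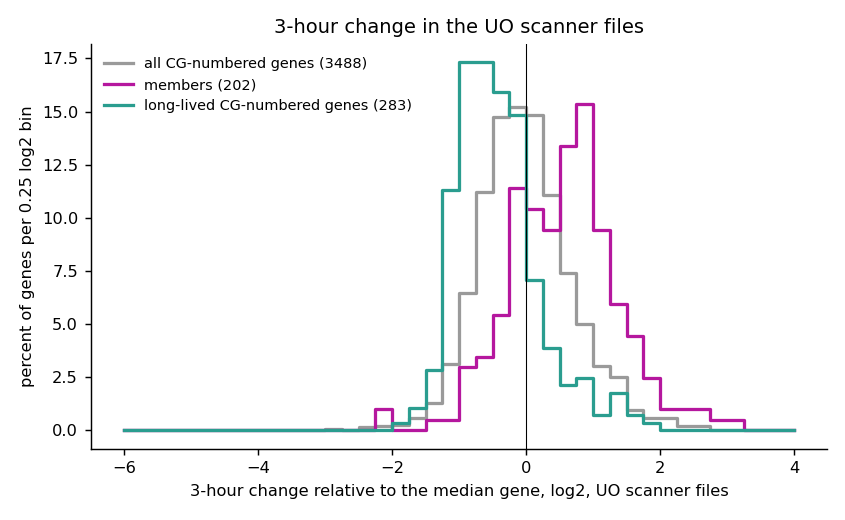
Outlines show the percent of genes in each bin of the 3-hour change relative to the median gene, in log2, in the UO scanner files, for all CG-numbered genes (grey), members (magenta) and long-lived CG-numbered genes (green). The members' outline peaks to the right of 0 and that of the long-lived genes to the left.

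Individual members differed widely in this source. The lowest were Nxf3 (CG32135), which read 961 at the labelled pulse, 618 at 1 hour and 75 at 3 hours, at -2.20 log2 relative to the median gene, and Polr3A, which read 1134, 210 and 95, at -2.10. For Polr3A the sign depends on the floor, without which its value was 0.17. CG6362 read 393, 89 and 50, the last being the background limit, and CG17490 read 418, 818 and 70. The highest was CG14223, which read 63, 399 and 185, 3.03 log2 above the median gene. CG40313 read 72, 113 and 188, CG41557 read 134, 362 and 307 and CG41569 read 78, 243 and 165. In these 4 the labelled pulse signal was the lowest of the 3, from 63 to 134 against a background limit of 51, whereas Nxf3, Polr3A and CG6362 fell at each step. The traffic genes had a median of 0.78 over 12 genes and the chromatin genes 0.07 over 11.

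In the RefSeq gene order, 4 of the 216 members had another member as their neighbour, 1.85%, against 2.92% of all CG-numbered genes that lay next to a member. The pairs were ZC3H3 (CG6694) beside CG43163 (CG6915), and CG11760 beside CG8136. In the first, the neighbours kept 6.71% and 3.82% in U+actD and 9.85% and 8.43% in the UO columns. In the second they kept 7.96% and 2.44% and then 9.85% and 2.78%. Of the matched members 200 were protein coding and 2 were not. Promoters, UTRs and proteins were not analysed here.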

How the data were processed

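The authors purified tagged RNA, labelled it with Cy3 and hybridised it with spike-ins to Agilent 4x44K arrays. Scanner output, per the file headers, lists for each spot a foreground and a local background intensity, the foreground less the background, and the percent of pixels at saturation. The deposited table and the series matrix hold the same intensity values (largest difference 0). For U+actD these are the scanner signals multiplied by 1 factor per array (1, 1.92 and 1.7664). The methods state that intensities within a series were normalized on spike-ins. For comparing series, they add that chase to pulse ratios were scaled to a common mean at each time point. Whether the deposited values carry that scaling is not given. The U+actD factors did not bring the spike-ins level, as given above. How the UO columns were made from arrays is not given in the sources used here.

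The members, the gene lists and the roles were chosen with earlier results of these data known. Spots of a gene were averaged in log2. Array number limits precision. P-values of the 1-hour fit with the series block measure the disagreement of the series. Those of the slope comparison are set against the departure of the series difference from a straight line over chase hours. In both, limma moderates the variance over all genes. A probe in the scanner files was called above background over the 95th percentile of 153 negative control spots (51, 54 and 50 for UO), and signals under it were set to it. Saturated means at least 50 percent of pixels. Tests were run with limma 3.58.1 in R 4.3.3, on all genes with 6 values, and were checked on simulated data. The genes named are the 12 lowest members, those at the limits, the extremes at 1 hour, in the scanner files and among probes, and members with known functions. A fold against a U+actD signal under background is a bound, "at least". For the UO columns no such limit could be set, so their folds are given as read. Alternatives changed the averaging, filters, limits, centring, source, variance trend and arrays.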

Additional observations from a re-analysis of the deposited data

Results flagged for a closer look

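Of 216 members, 2 moved at least 2-fold to opposite sides of the median gene at 1 hour, above it in U+actD and below it in the UO columns, against 0.323% of all genes on opposite sides in either order. For uex (CG40084) the difference between the series was 2.43 log2, from 1.10 and -1.33, with a saturated spot on the U+actD pulse array. For CG41616 it was 2.3 log2, from 1.04 and -1.26, with no saturated spot. Each series had 1 array per time point, so neither difference was tested on its own at 1 hour.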

How the results depend on the processing

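No paired analysis was possible because each group had 1 array, all numbered 1, so that replicate numbers pair nothing. Without the series block of the 1-hour fit, 0 members were called by limma, and 5 were lower at an unadjusted p under 0.05. Under other settings, 64 values of the main results stayed within their interval or within 1.5 times their count, 16 moved further and 2 changed side. Of these 2, the turned direction of the UO scanner change was fixed in advance by the main value. The number of members was 132 at the lowest 10%, 335 at the lowest 20% and 28 with the UO scanner signals in place of the UO columns, and of those 28 only 10 were among the 216. Averaging or filtering otherwise gave 194 to 232 members, which shared 192 to 215 genes with the 216. The count of members called at 1 hour was 0 in every setting run, also without each array in turn. The count of members whose slope differed was 0 with every value at least 200, 0 with the UO scanner signals (128 higher and 0 lower at an unadjusted p under 0.05 by limma) and 4 with an intensity trend. The percent of members below the median gene at 1 hour over both series turned to 49.0% with the UO scanner signals. It ranged from 69.0% to 97.2% when 1 array was left out. Without centring, the coefficient compares a gene with its own pulse and not with the median gene. It was then below 0 for 100% of members, and for 7153 of all 8053 genes. Scaling U+actD on spike-ins gave a median half-life of 38.5 min, with 3.71% left at 3 hours and 21.8% at 1 hour. With it, 0 members were above their pulse signal at 1 hour, and 53 had a lower share left in the UO columns than in U+actD. The percent of members below the median gene at 3 hours in the UO scanner files was 37.6% with the 1-hour chase in place of the array labelled UO pulse. It was 74.8% with the direction turned, which only reverses the sign of the same values. At the lowest 10%, 21 members lay at least 2-fold above the median gene at 1 hour in the UO scanner files. For Polr3A (CG17209) the 3-hour scanner value turned to 0.17 without a floor and 0.22 with only genes above background on all UO scanner arrays, and for CG17490 to 0.16 in the latter setting. The cause was not tested. The spike-in scale for these counts, the change without the array labelled UO pulse, the turned direction, averaging the spots of a probe first, the pulse minimum on gene means, and leaving out members with saturated spots or CG numbers of 40000 or above were chosen after seeing the data.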
